A study of Bos taurus with 8 samples.

Results

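Fibro-adipogenic progenitors (FAPs) of calves and of adult cattle were compared after the first 72 h of culture (passage 0). The FAPs are the cells of the passage 0 library that carry the deposited label FAPs, 5756 of the 9591 cells of that library and of the 36129 cells of the series. They came from 9 Belgian Blue animals, 5 calves (donors 2, 4, 5 and 7, female, and donor 10, male) with 3443 FAPs and 4 adults (donors 1 and 9, female, and donors 6 and 8, male) with 2313. The exact ages, and any treatment of the animals, are not given in the sources used here. Cells were released from the semitendinosus muscle with collagenase, and each animal was plated as its own culture, unsorted, on fibronectin in serum-free growth medium. After 72 h the cultures were pooled and run as 1 Chromium library, so calves and adults share the library, and donors were told apart afterwards by their genotypes. The series also lists a run 2 of passage 0, and only run 1 was used here. Each animal gave 1 culture, so differences between animals and between culture dishes cannot be told apart.

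FAPs are the interstitial mesenchymal cells of skeletal muscle. They deposit the collagen-rich matrix around the fibres, secrete growth factors and cytokines that act on satellite cells (SCs, the muscle stem cells), and can become adipocytes or fibroblasts. In growing animals muscle connective tissue is known to express the fetal growth genes, among them insulin-like growth factor 2 (IGF2), at higher levels than in the mature animal. The question here was whether FAPs of young and of mature donors still differ once they proliferate in the same medium, which bears on the choice of donor for cultured meat.

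Unique molecular identifiers (UMIs) were summed over the FAPs of each donor, and the donor was the replicate. Between 452 and 946 FAPs per donor carried 10321593 to 23061306 UMIs. The median FAP had between 21002 and 26464 UMIs in 8 donors and 14417 in calf 4, and 39 of the FAP barcodes also occur in another library. The label was checked against marker lists, as CPM (counts scaled to a common library total). All 15 FAP genes were detected above 1 CPM, and their summed level lay between 6116 and 10215 CPM over donors. PDGFRA, the receptor by which FAPs are usually recognised, stood at 282 CPM in FAPs against 108 CPM in monocytes and macrophages, 61.4 CPM in SCs and 20.8 CPM in endothelium. DCN, LUM, COL1A1 and COL3A1 were also highest in FAPs. The margin was small for LUM (355 CPM, 270 in SCs) and COL3A1 (1407 CPM, 1053 in mural-type cells). ITGA5 of the same list went the other way, with 157 CPM in FAPs, 220 in endothelium and 279 in mural-type cells. The 12 SC genes summed to between 21.8 and 33.7 CPM, against 214 in cells labelled SCs. The 10 vascular genes reached 36.0 to 64.7 CPM, against 5064 in the endothelial cells themselves. The 6 lymphatic genes reached 109 to 199 CPM (2175 in lymphatic cells), almost all of it PDPN at 104 to 196 CPM, with PROX1 of lymphatic cells at 0.0954 CPM. The 10 mural genes reached 46.3 to 89.4 (4291 in the mural-type cells). The 10 macrophage genes summed to 19.1 to 32.1 CPM (4385 in monocytes and macrophages), the 8 glial genes to 9.47 to 24.9 (1156 in glial cells) and the 9 muscle fibre genes to 0.984 to 2.22. RGS5 of mural cells, CHRDL2 of SCs and MYH2 of fibres had no UMI, which allows at most 0.0220 CPM, and PTPRC, the leukocyte antigen, was at 0.0367. RGS5 was low in the mural-type cells too, at 5.03 CPM. Other mural genes were detected in FAPs, such as ACTA2 at 21.3 to 54.3 CPM over donors. No difference between calves and adults passed for the 8 lists (exact 2-sided permutation tests over donors, adjusted p from 0.476 to 0.968).

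No gene passed the test. Of 11466 genes tested with edgeR, 0 (0%) had an adjusted p below 0.05, with or without the further limit of an absolute log2 fold change (log2FC, calf minus adult) above 1, and the smallest adjusted p was 0.717. At an unadjusted p below 0.05 there were 575 genes (5.01%). For 232 genes (2.02%) the 5 calf values lay apart from the 4 adult values, and 85 genes (0.741%) had an absolute log2FC above 1. The median log2FC was 0.01, and 52.2% of genes had a log2FC above 0. The 95% interval of the log2FC lay within -1 to 1 for 10372 genes (90.5%) and within -0.5 to 0.5 for 7496 (65.4%), so for most genes a difference of 2-fold or more was outside the interval. DESeq2 on the same sums called 8 genes, 4 in each direction, and 12 genes passed an adjusted p below 0.05 without the limit on the fold. The 8 were IGF2BP3, IGFBP5, NRK and HEY1, with higher values in calves, and GPNMB, ASS1, SULT1C4 and MGAT4A, with lower values. TBX3, SLC2A6, IGF2 and COL18A1 passed on the adjusted p alone. HEY1 is outside the rule by which genes are named here and is named because DESeq2 called it.

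**Figure D1:**
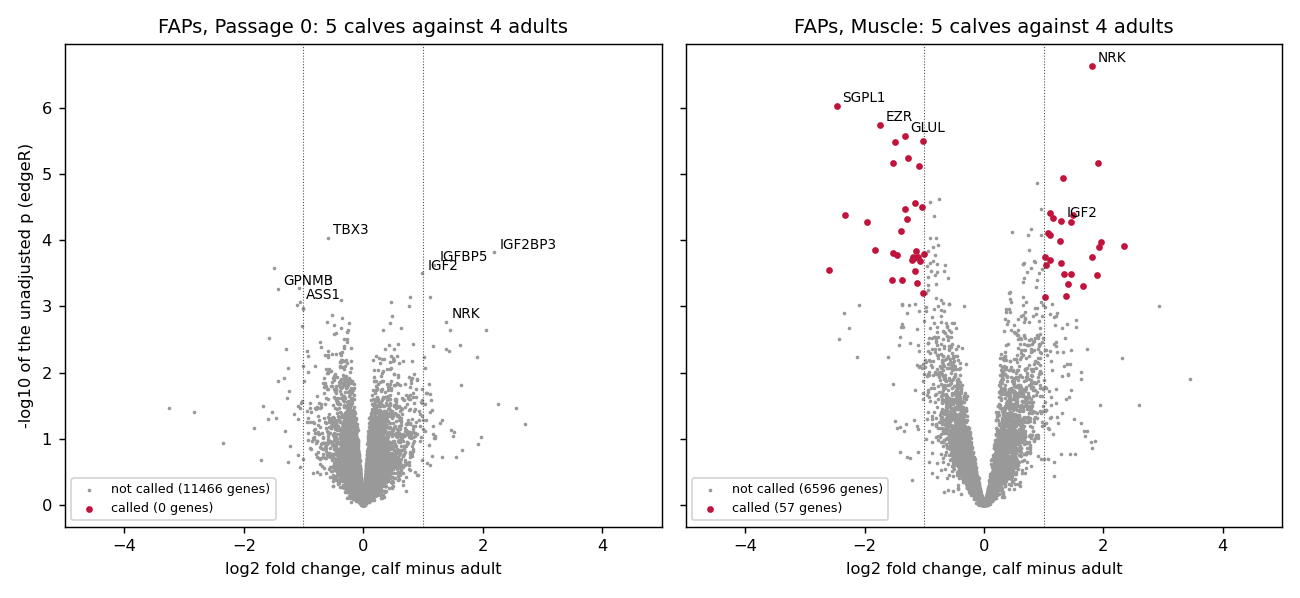
Each point is a gene in FAPs, by log2 fold change (calf minus adult) and -log10 of the unadjusted edgeR p, at passage 0 (left, 11466 genes) and in muscle (right, 6653 genes) of the same 9 donors. Dotted lines mark a log2FC of -1 and 1, and red points are called: 0 at passage 0 and 57 in muscle.

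Genes of the insulin-like growth factor axis and of fetal growth, and the kinase NRK, which is in neither list, stood among the smallest p-values, although none passed the adjusted test in edgeR. IGF2, a growth factor of fetal and early postnatal growth, was at 9.62, 10.8, 6.51, 6.27 and 6.91 CPM in calves 2, 4, 5, 7 and 10. In adults 1, 6, 8 and 9 it was at 4.30, 3.44, 3.81 and 4.59 CPM. Every calf lay above every adult, at a low level of 50 to 156 UMIs per donor. The log2FC was 0.99 (SE 0.19, 95% interval 0.57 to 1.40, adjusted p = 0.717 in edgeR and 0.00736 in DESeq2).

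IGF2BP3, a fetal RNA-binding protein known to bind the IGF2 transcript, had the largest fold of these genes. The calves were at 7.09, 5.36, 5.34, 6.81 and 5.62 CPM, and the adults at 0.318, 1.69, 2.34 and 0.643 CPM, from as few as 4 UMIs in a donor. The 2 adult values below 1 CPM are those of the female adults and the 2 above it those of the males. The log2FC was 2.19 (SE 0.38, 95% interval 1.35 to 3.03), with an adjusted p of 0.717 in edgeR and 9.13e-05 in DESeq2. In female donors alone, 4 calves against 2 adults, it was 3.68 with an adjusted p of 0.0593 in edgeR.

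IGFBP5, a secreted binding protein that holds IGFs in the matrix, was at 28.9, 24.0, 26.7, 31.6 and 27.8 CPM in calves. The adults were at 13.5, 6.59, 16.7 and 12.2 CPM, all below the lowest calf. Its log2FC was 1.19 (SE 0.22, 95% interval 0.71 to 1.67, adjusted p = 0.717 in edgeR and 0.000167 in DESeq2). NRK, a kinase described in embryonic muscle, was at 14.6, 10.3, 13.9, 12.9 and 12.7 CPM in calves and at 1.43, 6.94, 6.52 and 4.41 CPM in adults, again without overlap. Its log2FC was 1.39 (SE 0.33, 95% interval 0.66 to 2.12, adjusted p = 0.826 in edgeR and 0.0179 in DESeq2).

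The axis as a whole did not move one way. Of its 20 listed genes 13 were tested, 0 passed in edgeR, 10 had a log2FC above 0 and the median was 0.21, beside 0.01 over all genes. An unadjusted p below 0.05 was found for 6 of the 13, beside 5.01% of all genes tested. DESeq2 passed IGFBP5 and IGF2. Without calf 5 the median was 0.09, with 7 of 12 above 0 and 4 at an unadjusted p below 0.05. IGFBP4, another binding protein, had the opposite sign, with 32.8 to 44.1 CPM in calves and 43.8 to 64.6 CPM in adults, which overlap (log2FC -0.48, SE 0.12, adjusted p = 0.826). The receptors had log2FC values of 0.84 for INSR, 0.27 for IGF2R and 0.16 for IGF1R, with adjusted p from 0.951 to 0.980. Among 18 tested genes of the imprinted and oncofetal list, which shares IGF2 and IGF2R with the axis, 0 passed in edgeR (IGF2BP3 and IGF2 in DESeq2), 13 had a log2FC above 0, 7 had an unadjusted p below 0.05 and the median was 0.27. CDKN1C, the imprinted cell cycle inhibitor, was at 2.82 to 5.34 CPM in calves and 1.48 to 2.33 CPM in adults (log2FC 0.84, SE 0.23, adjusted p = 0.912). DLK1, an imprinted gene known from fetal muscle and fat progenitors, was near the floor in both, at 0.368 to 1.89 CPM in calves and 0.637 to 2.03 CPM in adults. These lists were chosen with earlier results of these data known, so the counts describe them and do not test them.

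The other 6 genes named for a small p and higher calf values are in neither list. COL18A1, a basement membrane collagen, was at 29.5, 46.2, 39.4, 38.4 and 49.4 CPM in calves and at 19.4, 28.7, 27.2 and 19.3 CPM in adults (log2FC 0.77, SE 0.17, adjusted p = 0.748 in edgeR and 0.0179 in DESeq2). The lowest calf and the highest adult were close, 29.5 against 28.7 CPM. TFPI, an inhibitor of blood coagulation, had a log2FC of 0.78 (SE 0.17), and VPS51, a subunit of vesicle tethering complexes, one of 1.12 (SE 0.24), from 7 to 27 UMIs per donor. CCSAP of the mitotic spindle (0.46), CPXM1, a secreted carboxypeptidase-like protein (0.49), and SMARCA1, a chromatin remodeller (0.45), had smaller folds. Their adjusted p in edgeR lay between 0.748 and 0.826.

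Among the genes with lower values in calves, TBX3, a T-box transcription factor of limb mesenchyme, had the smallest p of all genes tested. It was at 39.8, 35.5, 31.4, 37.3 and 32.1 CPM in calves and at 52.5, 44.2, 58.3 and 57.3 CPM in adults, without overlap. The log2FC was -0.59 (SE 0.10, 95% interval -0.81 to -0.37), with an adjusted p of 0.717 in edgeR and 0.000391 in DESeq2, so its interval lies inside the 2-fold limit. GPNMB, a glycoprotein of lysosomes and the cell surface, was at 37.7, 25.2, 15.2, 27.9 and 38.2 CPM in calves. In adults it was at 93.5, 52.7, 68.3 and 95.6 CPM, all above the calves. Its log2FC was -1.42 (SE 0.28, 95% interval -2.04 to -0.80, adjusted p = 0.748 in edgeR and 0.000167 in DESeq2).

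ASS1, the enzyme that makes argininosuccinate on the way to arginine, was at 31.4, 21.5, 31.4, 28.1 and 52.7 CPM in calves and 77.8, 56.8, 73.1 and 68.0 CPM in adults. Calf 10 came nearest to the adults. The log2FC was -1.05 (SE 0.22, adjusted p = 0.748 in edgeR and 0.00258 in DESeq2). Without calf 10 it was -1.29 with an adjusted p of 0.0340, the 1 call that edgeR made when any donor was left out. SLC2A6, a sugar transporter of the glucose transporter family, had a log2FC of -0.55 (SE 0.11) and MGAT4A, an enzyme that branches N-glycans, one of -1.08 (SE 0.22). SULT1C4 (ENSBTAG00000032051), a sulfotransferase, had a log2FC of -1.49 (SE 0.28). Its symbol stands for several genes in the annotation, so how reads were shared among the copies is uncertain. LRP8, a lipoprotein and reelin receptor (-0.37), NDNF, a secreted neurotrophic factor (-1.10), CDA, cytidine deaminase (-1.01), and ATP6V0A4, a proton pump subunit (-1.02), completed the 10 genes of this direction, and all but LRP8 of these 4 were below 4 CPM. Over 17 settings of edgeR, the main fit included, the adjusted p of the 11 genes above that DESeq2 passed ran from 0.034 to 1. Each kept its direction wherever it was tested (179 of 179 values). These genes were picked by p in the same donors, and their groups do not overlap. A kept direction therefore follows largely from the choice and is not independent evidence.

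**Figure D2:**
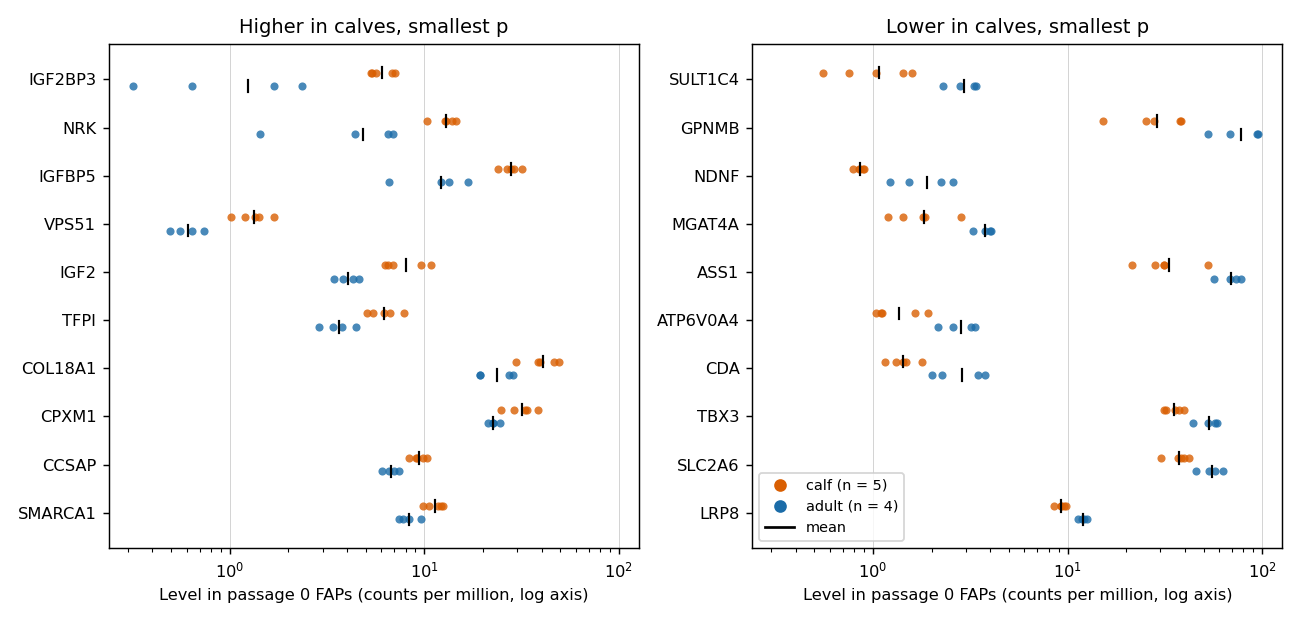
Levels in passage 0 FAPs (CPM, log axis) of the 10 genes with the smallest p in each direction, 1 point per donor, calves in orange (n = 5), adults in blue (n = 4), black marks for means. The genes were picked by p, so separated groups follow from the choice, and none passed the adjusted test in edgeR. IGF2BP3 calves sit between 5.34 and 7.09 and its adults between 0.318 and 2.34.

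The 39 gene lists held 532 genes that could be tested, and 0 passed in edgeR. Counts of passed members below are those of edgeR. DESeq2 passed IGF2BP3, IGFBP5, IGF2, TBX3 and COL18A1 of these lists, as given above. At an unadjusted p below 0.05 in edgeR there were 48 (9.02%, against 5.01% of all genes tested). All lists were chosen with earlier results of these data known, so this share describes them and tests nothing. Of the 35 lists with 5 or more tested genes, 31 had a median log2FC between -0.3 and 0.3. The highest median was 0.52, for complement genes, and the lowest -0.39, for chemokines and inflammatory cytokines. Several medians rested on calf 5. Without it 0 genes passed in any list in edgeR, and the complement median was -0.04. The median without calf 5 was 0.13 for collagens, 0.07 for elastic fibre genes, 0.03 for interferon-stimulated genes, 0.15 for Wnt genes and 0.01 for integrins. It was 0.23 for contractile genes (the list of myofibroblast and YAP target genes) and -0.25 for metallothioneins. For chondrogenic, osteogenic and tenogenic genes it was -0.15, with 2 of 6 above 0, for adipogenic genes -0.11, for glucocorticoid response genes -0.10, for retinoid genes 0.06 and for mesenchymal transcription factors -0.06. Further medians between -0.1 and 0.1 also changed sign or size without calf 5, among them those of HOX and matrix-degrading genes, both 0.00. It was -0.38 for chemokines, -0.27 for NRF2 and thioredoxin genes, -0.20 for cholesterol and fatty acid synthesis and 0.19 for the imprinted and oncofetal list.

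Matrix genes, the main product of FAPs, were tested as 6 lists. The list of fibrillar and associated collagens also holds basement membrane collagens, among them COL4A1, COL4A2 and COL18A1. Of its members 0 of 18 passed in edgeR (COL18A1 in DESeq2) and 11 had a log2FC above 0 (median 0.22). SPARC, a collagen-binding matricellular protein, was at 641, 648, 1009, 731 and 864 CPM in calves and 557, 624, 615 and 496 CPM in adults, just without overlap (log2FC 0.44, SE 0.14, adjusted p = 0.928). COL5A3 had a log2FC of 0.29 (SE 0.11, adjusted p = 0.937). Collagen-processing enzymes had a median of 0.08 (0 of 19 passed), and the 95% interval lay within -1 to 1 for 18 of them. PCOLCE2, an enhancer of procollagen cleavage, had a log2FC of -0.33 and P4HA1, a prolyl hydroxylase subunit, one of 0.10. Elastic fibre genes had a median of 0.24 (0 of 15), with FBN2, the fetal fibrillin, at 3.05 to 10.5 CPM in calves and 1.19 to 4.31 CPM in adults (log2FC 1.13, SE 0.43, adjusted p = 0.961). LTBP2, a microfibril protein, was at -0.24 (SE 0.09, adjusted p = 0.937). Small leucine-rich proteoglycans had a median of 0.05 (0 of 8) and matricellular proteins one of -0.01 (0 of 18). The interval lay within -1 to 1 for 5 and 8 of these genes. The matrix-degrading list had a median of 0.06 (0 of 18 passed). In it MMP3, the stromelysin, was at 2.58 to 7.43 CPM in calves and 4.32 to 18.6 CPM in adults (log2FC -1.09, SE 0.43, adjusted p = 0.967), and MMP2 was at 764 to 924 against 871 to 983 CPM (-0.10).

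FAP identity genes themselves did not pass (0 of 15). Of these, 14 had a log2FC above 0, with a median of 0.23, and without calf 5 the count was 11 and the median 0.12. Calf 5 was highest in PDGFRA (529 CPM, with 175 to 324 CPM in the other 8 donors), MFAP5, a microfibril protein (54.1 CPM, with the others below 20 CPM), and THY1, a surface glycoprotein (98.7 against 20.7 to 34.7 CPM). COL1A1 was at 555 to 1087 CPM in calves and 429 to 757 CPM in adults (log2FC 0.49, SE 0.23, adjusted p = 0.967). For SCARA5, a receptor that marks a FAP subset, the log2FC of 2.71 had a 95% interval from -0.15 to 5.58, and calf 5 alone, at 58.1 CPM, stood above the 1.29 to 5.67 CPM of the other 8 donors.

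Cell cycle genes were close in both ages. The 24 replication genes had a median log2FC of 0.04 and the 24 mitosis genes one of 0.06, and 0 passed in either list. In each list 19 genes had a log2FC above 0, beside 52.2% of all genes tested, and without calf 5 these were 22 and 21. The interval lay within -1 to 1 for 23 replication and 24 mitosis genes. MCM3, of the replicative helicase, was at 68.7 to 96.3 CPM in calves and 59.4 to 75.5 CPM in adults. CENPE, a kinetochore motor, was at 148 to 175 CPM in calves and at 141 to 157 CPM in adults. Of 15 inhibitors and senescence-linked genes 0 passed (median 0.07). IGFBP7 had a log2FC of 0.71 (SE 0.26, adjusted p = 0.961).

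In edgeR no gene of the cytokine, antioxidant, lipid synthesis or metallothionein lists passed. Chemokines and cytokines had a median of -0.39, 0 of 21 passed, and 8 of 21 had a log2FC above 0. The interval lay within -1 to 1 for only 5 of the 21, so a 2-fold difference was not excluded for most of them. CSF1, the macrophage growth factor, was at 688, 543, 695, 682 and 640 CPM in calves and 902, 656, 820 and 1019 CPM in adults (log2FC -0.39, SE 0.12, adjusted p = 0.928). IL6 was at 314, 405, 307, 247 and 339 CPM in calves and 642, 354, 368 and 636 CPM in adults (log2FC -0.63, SE 0.21, adjusted p = 0.928). In both genes the 2 female adults were the highest of all donors and the groups overlapped. The 16 NRF2 and thioredoxin genes, an antioxidant programme, had a median of -0.31, with 3 above 0 and 0 passed. GCLM, of glutathione synthesis, had a log2FC of -0.32 (SE 0.10) and FTL, a ferritin chain, one of -0.37 (SE 0.13). Among 22 genes of cholesterol and fatty acid synthesis 2 had a log2FC above 0, 0 passed and the median was -0.17. INSIG1, the sterol sensor partner, was at 44.3 to 55.4 CPM in calves and 56.9 to 75.7 CPM in adults (log2FC -0.37, SE 0.09, adjusted p = 0.826). Metallothioneins had a median of -0.07 (0 of 10 passed), with MT3 at 13.2 to 51.3 CPM in calves and 20.5 to 81.8 CPM in adults.

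In the other direction, complement genes of stromal cells had the median of 0.52, with 0 of 14 passed, 11 above 0 (6 without calf 5) and the interval within -1 to 1 for only 4. CD46, a membrane inhibitor of complement, was at 60.5 to 80.9 CPM in calves and 54.9 to 60.3 CPM in adults (log2FC 0.31, SE 0.09, adjusted p = 0.912). CFD had a log2FC of 0.75 (SE 0.34, adjusted p = 0.967). Interferon-stimulated genes had a median of 0.14 (0 of 21 passed) and antigen presentation genes one of -0.05 (0 of 14 passed). The 13 mitochondrially encoded genes all had a log2FC above 0, with a median of 0.05 and 0 passed, and for each the interval lay within -1 to 1. ND3 was at 1334 to 1662 CPM in calves and 1238 to 1472 CPM in adults.

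Lists on lineage and signalling gave no call in edgeR either. Adipogenic genes had a median of -0.03 (0 of 21), with APOE at 0.56 (SE 0.22, adjusted p = 0.967). For chondrogenic, osteogenic and tenogenic genes the median was 0.01 (0 of 7), with the interval within -1 to 1 for only 1. TGF-beta and BMP genes had a median of 0.05 (0 of 27), with INHBB, the activin B chain, at -0.77 (SE 0.32) and BMPR1B at 0.53 (SE 0.21). Wnt genes had a median of 0.29 (0 of 13), with the interval within -1 to 1 for 6. DKK1, a secreted Wnt inhibitor, was at 0.307 to 2.73 CPM in calves and 0.246 to 0.583 CPM in adults (log2FC 1.63, SE 0.57, adjusted p = 0.928). The HOX genes, which record position along the body, had a median of 0.05 (0 of 19) and mesenchymal transcription factors one of 0.01 (0 of 25 in edgeR, TBX3 in DESeq2), with RUNX1 at 0.32 (SE 0.10, adjusted p = 0.928). Retinoid genes had a median of 0.10 (0 of 12), with the interval within -1 to 1 for 6. RDH10, which makes retinaldehyde, was at 2.75 to 4.04 CPM in calves and 4.61 to 8.54 CPM in adults (log2FC -0.72, SE 0.19, adjusted p = 0.912), and ALDH1A3, which makes retinoic acid, had a log2FC of -0.59 (SE 0.21, adjusted p = 0.928). For growth factor receptors and ligands the median was 0.02 (0 of 21, VEGFA -0.46), for integrins 0.10 (0 of 15, ITGB3 -0.45), for contractile genes 0.12 (0 of 15), for immediate early genes 0.08 (0 of 16, NR4A2 -0.62) and for glucocorticoid response genes -0.01 (0 of 11, SGK1 0.49). Of the marker genes of other cells, the 7 mural genes tested all had a log2FC above 0 (DES only 0.00043), with a median of 0.45 and 0 passed. The interval lay within -1 to 1 for 2 of them. Without calf 5 the count above 0 was 6, the median 0.49 and 2 had an unadjusted p below 0.05. Their summed level was 49.1 to 89.4 CPM in calves and 46.3 to 78.4 CPM in adults (exact permutation p = 0.159, adjusted p = 0.476). Calf 5 was the lowest calf and the other 4 were at 77.9 to 89.4 CPM. The mural and contractile lists share members, among them CNN1 and TAGLN, so their values are not independent. How far cells other than FAPs add to either was not tested. The 10 vascular genes had a median of -0.02 and the 5 SC genes one of 0.00, with 0 passed.

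**Figure D3:**
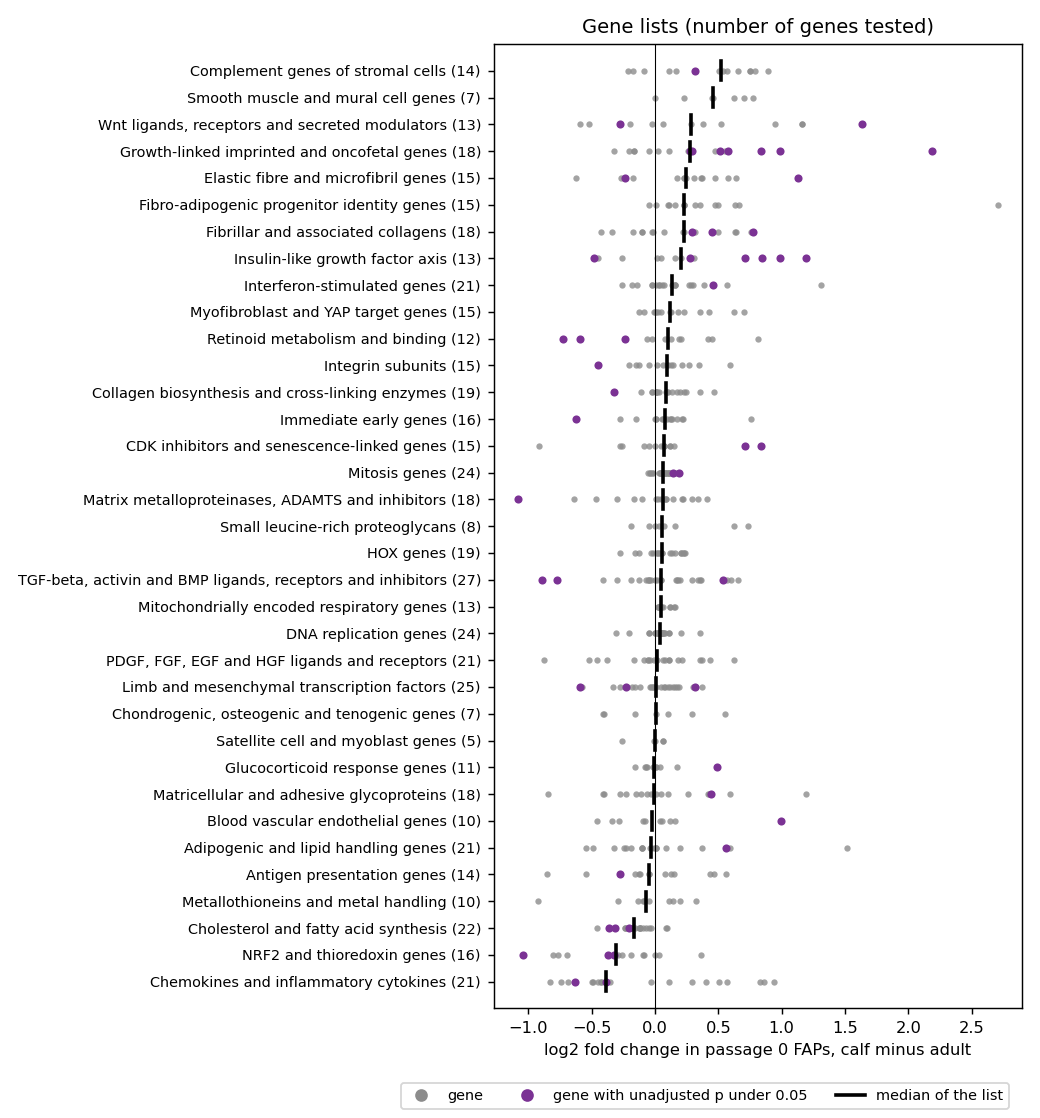
log2 fold change in passage 0 FAPs (calf minus adult) of the genes in each of the 35 lists with 5 or more genes tested. Points are genes, purple where the unadjusted p is below 0.05, and black bars are medians, which run from -0.39 to 0.52. The complement median is -0.04 without calf 5. No gene passed the adjusted test in edgeR.

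Single donors stood apart more than the ages did on the leading components. In a principal component analysis of 5077 genes the first component (40.1% of the variance) placed calf 5 at 22.3 and the other 8 donors, calves and adults mixed, at -10.0 to 5.0. The second (21.7%) had the 2 female adults above 10 and the other 7 donors at -7.93 to 2.42. Calf 5 differed from the mean of the other donors by a root mean square of 0.360 on the log2 CPM scale, the other donors by 0.158 to 0.244.

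Genes with the largest spread over the 9 donors are named here after their values were seen, with no test. SAA3, an acute phase protein, was at 828 CPM in calf 5 and at 32.7 to 99.6 CPM in the other 8 donors. M-SAA3.2, a close copy of it for which reads may be shared, was at 226 CPM in calf 5. CFB, complement factor B, was at 636 CPM in calf 5 and 55.0 to 169 CPM in the others. TGM3, a transglutaminase of epithelia, was highest in calf 4 (234 CPM), and PI3, the protease inhibitor elafin, in adults 9 (116 CPM) and 1 (52.1 CPM), with 1.17 to 12.5 CPM elsewhere. CYP1A1, a target of the aryl hydrocarbon receptor, was also highest in adults 1 (64.9 CPM) and 9 (49.4 CPM). Only HPGD, the enzyme that breaks down prostaglandins, was without overlap among the 20 genes of largest spread. It was at 348, 208, 71.1, 252 and 199 CPM in calves and 376, 518, 393 and 871 CPM in adults, with the nearest values at 348 and 376 (log2FC -1.32, SE 0.42, adjusted p = 0.928).

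**Figure D4:**
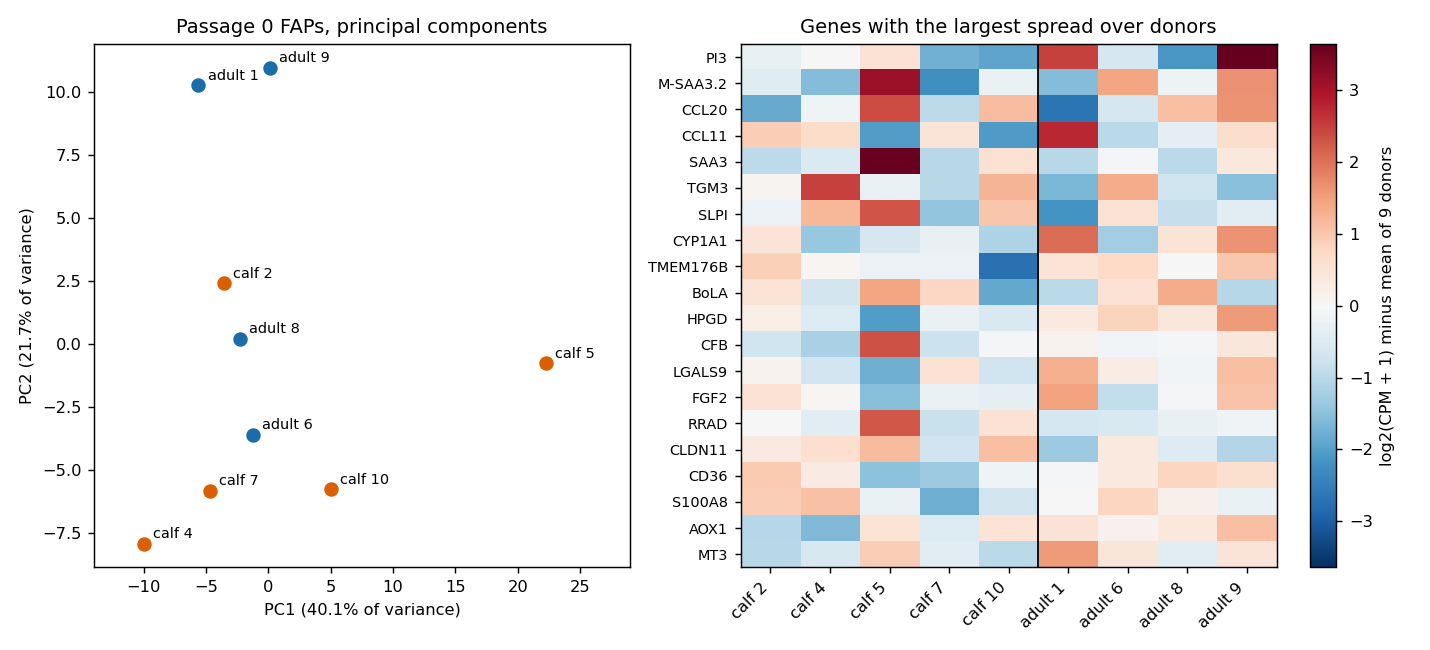
Left, the 9 donors by the first 2 principal components of their passage 0 FAPs, calves in orange and adults in blue. Right, the 20 genes with the largest spread over donors as log2(CPM + 1) minus the mean of the 9 donors, calves left of the line. Calf 5 lies at 22.3 on the first component, with SAA3 and CFB far above the other donors.

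The same 9 animals had FAPs in the muscle library, sequenced before culture, and there calves and adults did differ. In 1179 muscle FAPs, 57 of 6653 genes (0.857%) were called by edgeR, 26 higher and 31 lower in calves, and 1017 (15.3%) had an unadjusted p below 0.05. By direction these are 0.391% and 0.466% of the genes tested. On the adjusted p alone 106 genes (1.59%) passed, the donors of both ages were without overlap for 456 (6.85%), 181 (2.72%) had an absolute log2FC above 1 and 51% of genes had a log2FC above 0. The count rested partly on single donors, with 14 calls without adult 6 and 31 without calf 2. Both cell sets come from the same animals but from different libraries, and culture and library cannot be told apart. The muscle sums were also smaller, 314002 to 2268755 UMIs per donor from 57 to 350 FAPs. Only UMIs were matched below, and the passage 0 sums still came from 452 to 946 FAPs per donor. With the passage 0 UMIs of each donor drawn down at random to that donor's muscle total, 0 of 6032 genes were called at passage 0 and 273 had an unadjusted p below 0.05. The interval then lay within -1 to 1 for 90.1% of genes, against 74.7% in muscle. Over 4171 genes above 20 CPM in both sets, by library totals without TMM scaling, the median standard deviation within an age group was 0.114 at passage 0 and 0.283 in muscle on the log2 CPM scale, and 0.242 at passage 0 once depth was matched.

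The change of the age difference between muscle and passage 0 was tested within donors. It passed for 71 of 12370 genes (0.574%, edgeR interaction, adjusted p below 0.05), with 8.96% at an unadjusted p below 0.05, and 59 of the 71 had been tested in both sets. In 58 of these the absolute log2FC was larger in muscle, LRRN4CL being the exception. They were picked by this test, and muscle values were shallower and more spread, so the 58 are not independent evidence. As background, over 4210 genes with a mean above 20 CPM in both sets the median absolute log2FC was 0.198 in muscle and 0.0569 at passage 0, with depth not matched. Instead of 71, the genes that passed were 32 without adult 6, 34 without adult 8, 40 without calf 2, 44 without adult 9, 47 without adult 1, and 24 with every sum thinned to the smallest UMI total. SGPL1, the lyase that degrades sphingosine 1-phosphate, was at 3.92, 11.6, 10.7, 4.49 and 6.86 CPM in calf muscle FAPs and 22.2, 56.0, 43.9 and 52.1 CPM in those of adults. These muscle values rest on only 2 to 48 UMIs per donor. At passage 0 SGPL1 was at 8.46 to 13.9 CPM in calves and 7.63 to 13.0 CPM in adults. The log2FC was -2.47 in muscle and 0.11 at passage 0, a difference of 2.67 (SE 0.37, adjusted p = 0.000545), which did not pass after thinning (2.55, adjusted p = 0.143). MAP1B, a microtubule protein, had a log2FC of 0.98 in muscle and -0.28 at passage 0 (difference -1.21, SE 0.18, adjusted p = 0.00162). CXCL3, a neutrophil chemokine, had 0.89 and -0.42 (difference -1.28, SE 0.19, adjusted p = 0.0018). For OLFM2, a secreted olfactomedin at 5 to 54 UMIs per donor in muscle, they were -1.37 and 1.03 (difference 2.47, SE 0.39, adjusted p = 0.0018). After thinning the difference of 2.89 had an adjusted p of 0.305. None of these 3 was itself called in muscle. ITGA5, the integrin subunit used as a FAP surface marker, differed in muscle (90.2 ± 29.6 CPM in 5 calves and 176 ± 37.3 CPM in 4 adults, SD, adjusted p = 0.0222) and had a log2FC of 0.10 at passage 0, where the interval ran from -0.06 to 0.27 (difference 1.10, SE 0.19, adjusted p = 0.00444).

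For the 54 genes called in muscle that could be tested at passage 0, the median absolute log2FC was 1.31 in muscle, where they were chosen for it, and 0.10 at passage 0, beside 0.09 for all genes tested there. The interval at passage 0 lay within -1 to 1 for 49 of the 54 (90.7%), near the 90.5% of all genes tested there. The largest value at passage 0 was that of NRK, 1.39, beside 1.81 (SE 0.21, adjusted p = 0.00154) in muscle, where it was at 114 ± 9.89 CPM in calves and 31.3 ± 12.3 CPM in adults (SD). IGF2 stood at 0.99 beside 1.30 (SE 0.21, adjusted p = 0.0132). Its level was 1658 ± 281 CPM in calf and 671 ± 251 CPM in adult muscle FAPs, and 8.02 ± 2.06 and 4.04 ± 0.51 CPM at passage 0 (SD, normalized separately in each library). The age-by-culture difference was not detected for NRK (-0.50, adjusted p = 0.637) or IGF2 (-0.38, adjusted p = 0.641). Other genes had opposite signs in the 2 sets. TBX3 had a log2FC of -0.59 at passage 0 and 0.40 in muscle (difference -1.02, adjusted p = 0.0709), and COL18A1 had 0.77 and -0.09 (difference 0.85, adjusted p = 0.0742), which did not pass. ITGB3 had -0.45 and 0.90, and this difference passed (-1.32, adjusted p = 0.00528).

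**Figure D5:**
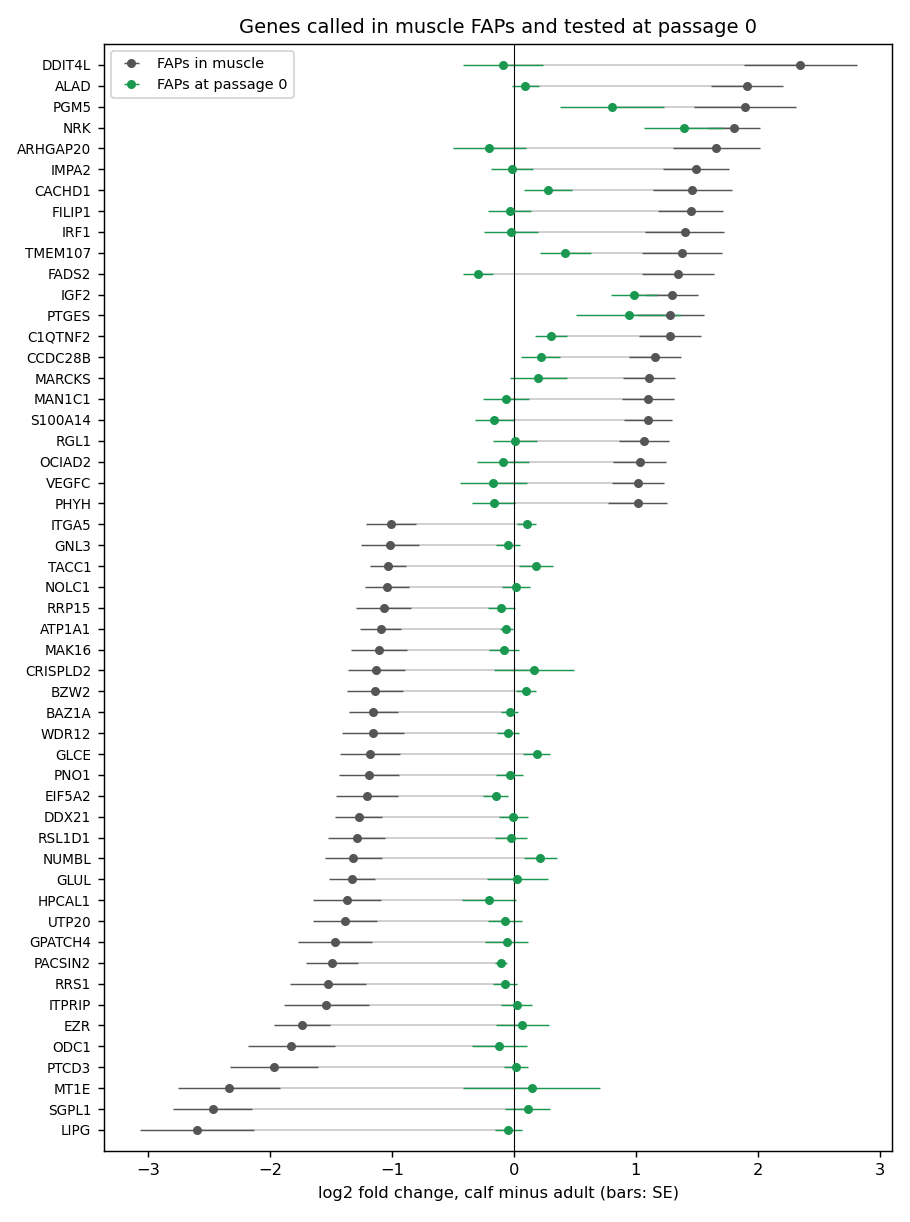
log2 fold change (calf minus adult) with its SE in muscle FAPs (grey) and passage 0 FAPs (green) for the 52 genes with a symbol that were called in muscle and tested at passage 0. The genes were chosen on the grey values. Passage 0 values lie near 0, apart from a few such as NRK (1.39) and IGF2 (0.99).

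SCs of the same library, 2282 cells, gave 0 calls of 9908 genes (0%) with edgeR, 1018 genes (10.3%) with an unadjusted p below 0.05, and 6 calls with DESeq2. The log2FC was above 0 for 49.8% of genes, and its interval lay within -1 to 1 for 89.6%. Without adult 6 edgeR called 40 genes. The age difference differed between FAPs and SCs for 1 of 11927 genes (0.00838%, with 10.2% at an unadjusted p below 0.05), and without adult 6 for 89, without adult 1 or adult 9 for 0. The gene was PTN, pleiotrophin, a heparin-binding growth factor. In FAPs it was at 3.70, 5.73, 13.5, 12.8 and 6.11 CPM in calves and 8.12, 5.60, 6.40 and 6.52 CPM in adults, which overlap (log2FC 0.35, SE 0.36). In SCs it was at 8.81, 28.6, 44.2, 36.5 and 14.2 CPM in calves and 5.83, 6.30, 8.14 and 8.20 CPM in adults (log2FC 1.98, SE 0.40, adjusted p = 0.359). The groups did not overlap, but calf 2 (8.81 CPM) had only 45 SCs and lay close to adult 9 (8.20 CPM). The other donors had 163 to 469 SCs. The difference of -1.52 had an adjusted p of 0.0209 and did not pass without adult 1, without adult 9 or with every sum thinned to the smallest UMI total.

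The number and quality of FAPs were compared last. FAPs were 70.6, 48.5, 78.1, 57.1 and 65.3% of the cells of calves 2, 4, 5, 7 and 10 and 55.9, 54.8, 58.9 and 51.8% of those of adults 1, 6, 8 and 9. The means were 63.9 ± 11.5% and 55.4 ± 2.94% (SD, exact 2-sided permutation test, p = 0.206, adjusted p = 0.476), and the calf values enclosed the adult values. Of the cells other than SCs the calf mean was 2.61 percentage points lower than the adult mean instead (exact permutation p = 0.778). Median UMIs per FAP averaged 22136 ± 4839 over calves, beside 25275 ± 627 over adults (exact p = 0.238, adjusted p = 0.476), and median genes 4206 ± 414 and 4517 ± 46.0 (exact p = 0.206, adjusted p = 0.476). The median percent of mitochondrial UMIs was 3.05 ± 0.224 and 2.92 ± 0.0791 (exact p = 0.270, adjusted p = 0.476). With 5 donors against 4 the smallest p such a test can give is 0.0159.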

How the data were processed

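The authors aligned the reads to ARS-UCD1.2 and counted UMIs with CellRanger 6.0.1; the deposited matrices hold raw UMI counts (21880 genes, 16828 with a symbol). Matrix sums equalled the UMI totals of the deposited cell table in 8929 of 9591 passage 0 cells and were within 5% in all of them. In muscle they equalled them in 0 of 4395 cells and were within 5% in 4233, and the reason was not tested. Cell type labels, demuxlet donors, cell cycle phase and the percent of mitochondrial UMIs were taken as deposited by the authors; 8 columns of the cell table were not used. Only cells kept in the authors' cell table after their quality control, with a donor label, were used. No doublet label was used as a filter here. The demuxlet step finds doublets between donors only, so doublets within a donor may remain. The label of the passage 0 library lists sorted and unsorted cells, the methods only unsorted ones, and the cells are taken as unsorted. Donor 3 has no cells at passage 0.

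Sums of UMIs by donor within a cell type were tested with edgeR 4.0.16 (quasi-likelihood, robust, TMM, filterByExpr, Benjamini-Hochberg over all genes tested). Calls needed both an adjusted p below 0.05 and a log2FC above 1 or below -1. Each SE was derived from the log2FC and its F statistic. CPM use TMM-scaled totals, except that summed marker lists and the levels compared between cell types use raw UMI totals. The donor ranges of PDPN and ACTA2 beside them are TMM-scaled, so the 2 scales differ slightly. For log2 CPM the prior count was 2. Differences between cell sets were interactions with the donor as a factor. Single values were compared with exact permutations over donors (scipy 1.17.1), 12 in the family. DESeq2 1.42.0 was an alternative, beside other filters, factors, donors and cells. The scripts were tested on simulated data.

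The members and gene lists were chosen with earlier results of these data known. Genes named are the 10 with the smallest p in each direction, the 2 with the smallest p in each list, and the 4 with the smallest p of each interaction; others are named as such or as members of a list. With 1 culture per animal, p-values measure the spread between animals together with their cultures. Genome coordinates and sequences were not used here. A few genes are not reported here.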

Additional observations from a re-analysis of the deposited data

Results flagged for a closer look

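Among 248 groups of donors, from 124 results, 16 had 1 donor far from the others of its age. Chance gives about 1 in 20 such groups, but that rate does not apply to SAA3, M-SAA3.2, CFB, RRAD, MT3, CCL11 and TGM3, which are among the genes with the largest spread over donors. Of the 16, 11 were calf 5. Calf 5 stood above the other calves in SAA3 (828 CPM), M-SAA3.2 (226 CPM, a close copy of SAA3), CFB (636 CPM), RRAD (109 CPM), SCARA5 (58.1 CPM), MT3 (51.3 CPM), APOD (37.8 CPM), IFI27 (36.4 CPM), ECM2 (5.96 CPM) and TEK (3.13 CPM). It was below them in the summed mural markers, 49.1 CPM with the next calf at 77.9. Calf 4 was highest in the summed SC markers, 33.7 CPM with the next calf at 24.4, and calf 2 in ITGB3 (49.0 CPM). Among adults, adult 8 was high in LTBP2 (47.7 CPM), adult 1 in CCL11 (94.7 CPM) and adult 6 in TGM3 (105 CPM).

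The age difference in FAPs differed from that in SCs for 1 gene, PTN (-1.52 on the log2 scale, FAPs minus SCs). It differed between passage 0 and muscle FAPs for 71 genes, led by SGPL1 (2.67), MAP1B (-1.21), CXCL3 (-1.28) and OLFM2 (2.47, passage 0 minus muscle). Culture and library cannot be told apart in the muscle comparison.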

How the results depend on the processing

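For passage 0 FAPs edgeR called 0 genes with other size factors, no filter, sex as a covariate, female donors, G1 cells, equal cell numbers or thinned UMIs, and 0 to 1 with a donor left out. DESeq2 called 8, or 12 on the adjusted p alone. In muscle the count was 106 on the adjusted p alone, 159 with DESeq2 on the adjusted p alone, 140 without a filter and 14 to 73 with a donor left out. SCs gave 6 and 13 with DESeq2 and 0 to 40 with a donor left out. The FAP and SC difference gave 2 genes without a filter, 4 after thinning and 0 to 89 with a donor left out, the muscle difference 24 after thinning and 32 to 106. The median spread of passage 0 FAPs was 0.242 after thinning, and the share of FAPs among cells other than SCs differed by -2.61 percentage points. The causes were not tested.

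None of the genes whose log2FC at passage 0 changed sign had passed the calf against adult test there. Of these genes, SGPL1 and ITGA5 had been called in muscle and had passed the test of the difference from muscle. In female donors the log2FC was 0.10 for CHODL, -0.40 for S100B, 0.52 for JSP.1 and -0.049 for SGPL1. In G1 cells it was -0.31 for ITGA7, 0.074 for MMP2, -0.0042 for CENPE, -0.22 for BUB1B, -0.0075 for HOXC10 and 0.043 for TSC22D3. After thinning it was -0.24 for P4HA1, 0.067 for TAP2 and -0.047 for ITGA5, and with equal cell numbers -0.018 for TYROBP. With a donor left out it ran from -0.029 to 0.14 for ITGA7, from -0.033 to 0.50 for S100B and from -0.061 (without calf 5) to 0.81 for ECM2. No paired analysis was possible because calves and adults are different animals, and the donor numbers pair no calf with an adult.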
